A study of Homo sapiens with 18 samples.

Results

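The zinc finger genes of human chromosome 19 were followed through 18 RNA-seq libraries of U2OS cells, an established osteosarcoma line. Members were the protein-coding genes that the table places on chromosome 19 and whose symbol is ZNF followed by a number, with at most 1 letter after it. The rule used no expression value and gave 230 of 25296 genes in the table, 69 on the short arm (19p, start before position 26000000) and 161 on the long arm (19q). Of these, 214 passed the filter on low counts and were tested beside 18226 genes in all, 61 on 19p and 153 on 19q. The other 16 had at most 19 counts in any library and are not among the calls below.

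All libraries came from U2OS cells that carried the retroviral vector MigR1. The vector was empty (EV), or carried wild-type (WT) or mutant (MUT) DNMT3A, an enzyme that methylates DNA at CpG sites. The mutation is R882C in the series text but R882H in the sample labels. Each line was collected untreated, which the series text calls a vehicle control, and after 24 h in 10 µM cytarabine, a nucleoside drug that DNA polymerases incorporate and that stalls replication. Each of the 6 groups has 3 biological replicates. Each genotype was 1 line, so a difference between lines cannot be told apart from other differences between those cell populations, and p-values measure the spread between these samples. In bulk RNA, fewer cells that transcribe a gene and less RNA per cell cannot be told apart.

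Proteins of this family bind DNA through a row of C2H2 fingers, each of which contacts a few bases, so that the row reads a longer motif. Most also carry a KRAB domain at the amino end, which recruits the corepressor TRIM28 and through it the histone methyltransferase SETDB1, HP1 proteins and the NuRD complex. Many of them silence transposable elements, and the family grew by tandem duplication, which left clusters of related genes on chromosome 19.

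Promoter sequences from RefSeq (GRCh38.p14, 250 bases before to 50 bases after the annotated start) were at hand for 204 of the 230 members. The promoters of ZNF431 and ZNF787 are shown first because ZNF431 differed most between the lines and ZNF787 had the largest mean fall under cytarabine; capitals mark CpG sites. The ZNF431 window lies at chr19:21141790-21142089 on the plus strand and held 14 CpG sites, more than 19.9% of the promoters of tested genes. The ZNF787 window lies at chr19:56121246-56121545 on the minus strand and held 32, more than 68.5%.
ZNF431: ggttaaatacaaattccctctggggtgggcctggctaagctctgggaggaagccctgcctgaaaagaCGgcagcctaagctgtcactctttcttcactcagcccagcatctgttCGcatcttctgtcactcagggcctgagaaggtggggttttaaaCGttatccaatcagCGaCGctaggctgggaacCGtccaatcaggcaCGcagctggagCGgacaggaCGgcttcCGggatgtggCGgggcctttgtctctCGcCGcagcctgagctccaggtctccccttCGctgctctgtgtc
ZNF787: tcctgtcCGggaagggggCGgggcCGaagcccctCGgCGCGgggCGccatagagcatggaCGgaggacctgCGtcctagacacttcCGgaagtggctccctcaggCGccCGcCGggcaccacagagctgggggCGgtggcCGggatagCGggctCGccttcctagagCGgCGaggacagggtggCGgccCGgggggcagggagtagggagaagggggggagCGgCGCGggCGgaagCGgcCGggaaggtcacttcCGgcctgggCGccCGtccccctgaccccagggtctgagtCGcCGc

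ZNF563 and ZNF441 belong to 1 cluster on 19p and both rose in every line under cytarabine. Their windows lie at chr19:12333584-12333883 on the minus strand and at chr19:11766750-11767049 on the plus strand, and capitals mark the motif CCAAT, searched on both strands.
ZNF563: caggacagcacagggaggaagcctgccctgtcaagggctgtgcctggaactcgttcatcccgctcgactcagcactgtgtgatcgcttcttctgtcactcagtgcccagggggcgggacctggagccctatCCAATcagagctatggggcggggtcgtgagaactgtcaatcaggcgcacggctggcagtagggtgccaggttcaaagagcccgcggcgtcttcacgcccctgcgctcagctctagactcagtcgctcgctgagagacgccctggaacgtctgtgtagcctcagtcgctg
ZNF441: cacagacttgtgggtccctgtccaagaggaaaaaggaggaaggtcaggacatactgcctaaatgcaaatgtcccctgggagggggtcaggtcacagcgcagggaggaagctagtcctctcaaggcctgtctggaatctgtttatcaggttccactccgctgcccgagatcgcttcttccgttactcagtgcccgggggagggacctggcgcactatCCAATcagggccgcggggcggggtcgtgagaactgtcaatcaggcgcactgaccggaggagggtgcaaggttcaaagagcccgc
The longest run that these promoters share exactly was 35 bases, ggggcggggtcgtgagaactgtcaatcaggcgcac. CCAAT stood in the promoters of 99 of 192 tested members with a sequence (51.6%), against 36.0% of all 11750 promoters of tested genes. It was spread unevenly over the gene clusters defined in the next paragraph. It was found in 4 of 4 promoters of cluster 1, 21 of 23 of cluster 3 and 17 of 17 of cluster 4, but in 3 of 13 of cluster 2, 4 of 19 of cluster 7 and 8 of 29 of cluster 8. The ETS-type motif CCGGAA, on either strand, stood in 54.2% of members' promoters and 27.8% of all, and TATAAA in 2.08% against 6.03%. Tandem copies share sequence by descent, so their promoters are not independent of each other.

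Members with starts under 1 Mb apart formed 9 clusters of 5 or more, numbered from the tip of 19p to the tip of 19q, which held 219 of the 230. Cluster 3 (chr19:11483427-12640099) held 25 members, cluster 4 (chr19:19668796-24129962) held 23, cluster 8 (chr19:51571298-53580270) held 38 and cluster 9 (chr19:55476332-58481231) held 59. A KRAB A box was found in the translated sequence of 195 members, 182 of them tested, and was not found in 35, 32 of them tested. Members with a KRAB match had a median of 13 fingers and those without had 9. Per exonic length, the 214 tested members had a median of 1.3 RPKM over the libraries, from 0.0427 (ZNF506) to 36.8 (ZNF428), with ZNF358 at 35.0 and ZNF146 at 23.6 next in order. In untreated EV cells ZNF428 stood at 33.3 ± 2.15 RPKM, ZNF146 at 30.3 ± 0.322 and ZNF358 at 26.8 ± 0.489 (SD, n = 3), while in untreated MUT cells ZNF428 varied widely, at 44.9 ± 15.7. The counts behind most members were low, with a quartile range of 3.2 to 12.8 CPM (counts per M counts, 1000000, of the scaled library) over the libraries. Related copies can also share reads: 118 of the 230 members had a count that was not whole in at least 1 library, and 27 had one in every library, which marks reads divided among genes. Such counts were no more frequent than elsewhere, at 23.7% of the members' values against 28.9% of the values of all genes. Of the members, 82 overlapped a gene on the opposite strand, and the strand handling of the counting is not given in the sources used here.

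Library totals ran from 15.4 to 21.9 M counts. DNMT3A stood at 26.8 ± 0.662 CPM in untreated EV, 133 ± 5.17 in WT and 456 ± 184 in MUT cells, where replicate 3, at 253 CPM, was below replicates 1 and 2, at 499 and 615. The 3 untreated groups did not overlap. Markers of mesenchymal cells were present, with SPARC at 804 to 1170 CPM and RUNX2 at 29.6 to 53.1 CPM, and COL1A2 was low at 0.292 to 8.1 CPM. Among markers of other cell types, PTPRC reached at most 1.41 CPM, MS4A1 0.239, PECAM1 0.417, ALB 0.746, EPCAM 4.01, KRT5 5.01 and CDH5 6.37.

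Under cytarabine more members rose than fell in each line. In EV cells 49 of 214 tested members rose and 12 fell (22.9% and 5.61%), against a background of 26.1% of all tested genes higher and 22.9% lower, together 49.1%. In WT cells 60 rose and 18 fell (28.0% and 8.41%; background 26.3% and 22.7%, together 49.0%), and in MUT cells 69 rose and 18 fell (32.2% and 8.41%; background 30.4% and 25.9%, together 56.3%). The share of members that rose was thus near the background, and the share that fell was below it. The median log2 fold change of members was 0.15 in EV, 0.19 in WT and 0.26 in MUT cells, against 0.05, 0.03 and 0.05 over all tested genes. The EV median moved with single treated EV libraries, to 0.21 without replicate 1, 0.09 without replicate 2 and 0.10 without replicate 3. Among the other 2983 genes within the members' quartile range of counts, 39.2%, 38.3% and 43.6% rose, 10.7%, 12.3% and 15.3% fell, and the medians were 0.25, 0.23 and 0.28; these genes tilted toward rises as well. Scaled by the authors' own library factors, 42 members rose and 28 fell in EV cells, which moved the share of rises among called members from 80.3% to 60.0%, and the member medians were 0.08, 0.13 and 0.17, with all tested genes at -0.02, -0.04 and -0.03. The direction of the tilt was the same.

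**Figure D1:**
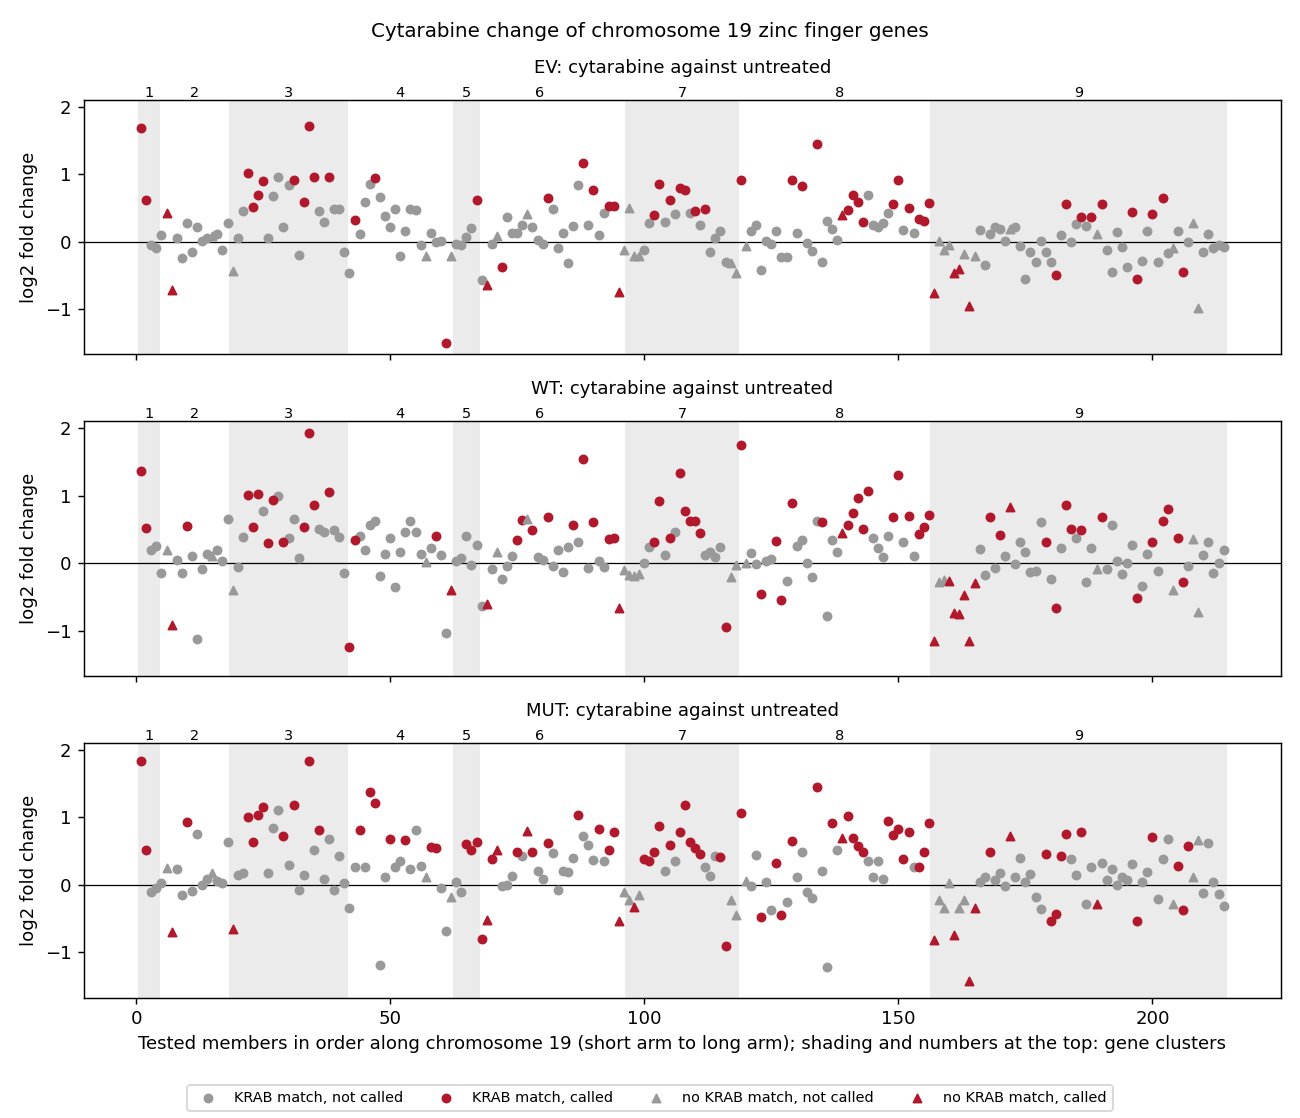
Log2 fold change under cytarabine (vertical axis) of the 214 tested members in order along chromosome 19 (horizontal axis), in EV, WT and MUT cells; circles have a KRAB match, triangles have none, and red marks an adjusted p under 0.05. In cluster 3 most points lie above 0 in each line, and the run of triangles at the start of cluster 9 lies mostly below it.

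Members moved much alike in the 3 lines, whose libraries are separate. Across the 214 members, the cytarabine changes had a Pearson r of 0.78 between EV and WT, 0.73 between EV and MUT and 0.77 between WT and MUT, against 0.71, 0.72 and 0.80 over all tested genes. These are correlations across genes of shared libraries, and genes are not independent replicates. In all 3 lines 31 members rose (14.5%; background 18.9%) and 9 fell (4.21%; background 16.4%). A called rise of at least 1 on the log2 scale was seen for 5 members in EV, 10 in WT and 13 in MUT cells. A called fall of at least that size was seen for 1, 3 and 1. The share of all tested genes with changes of this size is not given here.

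The balance of directions differed by protein class. Of the 182 tested members with a KRAB match, 47 rose and 5 fell in EV, 58 and 7 in WT, and 65 and 8 in MUT cells, with median log2 fold changes of 0.20, 0.26 and 0.32. Their rises (25.8%, 31.9% and 35.7%) were near the background of 26.1%, 26.3% and 30.4%, and their falls (2.75%, 3.85% and 4.4%) were below that of 22.9%, 22.7% and 25.9%. Of the 32 without a match, 2 rose and 7 fell in EV, 2 and 11 in WT, and 4 and 10 in MUT cells, with medians of -0.20, -0.23 and -0.23. Their falls were 21.9%, near the background, in EV, 34.4% in WT and 31.2% in MUT cells, and their rises (6.25%, 6.25% and 12.5%) were below it. The difference between the classes was not tested. Under the 25 other settings tried, including the authors' factors, rises outnumbered falls for the KRAB class (34 to 52 against 4 to 16 in EV), while for the others falls (6 to 12) outnumbered rises (1 or 2). Summed over the 195 members with a match, the 3 EV libraries held 1535, 1514 and 1538 CPM untreated and 1531, 1799 and 1740 treated. Treated EV replicate 1 lay within the untreated range, so these groups overlapped. In WT cells the sum was 1477 ± 13.5 untreated and 1709 ± 48.3 treated, and in MUT cells 1486 ± 31.4 and 1794 ± 86.0 (SD, n = 3), without overlap. Over the 35 members without a match the sum was lower with treatment in each line, from 782 ± 5.8 to 675 ± 46.4 CPM in EV, 826 ± 7.64 to 692 ± 7.74 in WT and 832 ± 81.9 to 706 ± 7.25 in MUT cells. Abundant members weigh most in such sums. In EV cells the mean of ZNF146 went from 126 to 80.1 CPM, ZNF787 from 62.6 to 32.5 and ZNF574 from 43.6 to 26.0. ZNF358 went from 55.8 to 74.8 CPM and ZNF121 from 100 to 106.

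**Figure D2:**
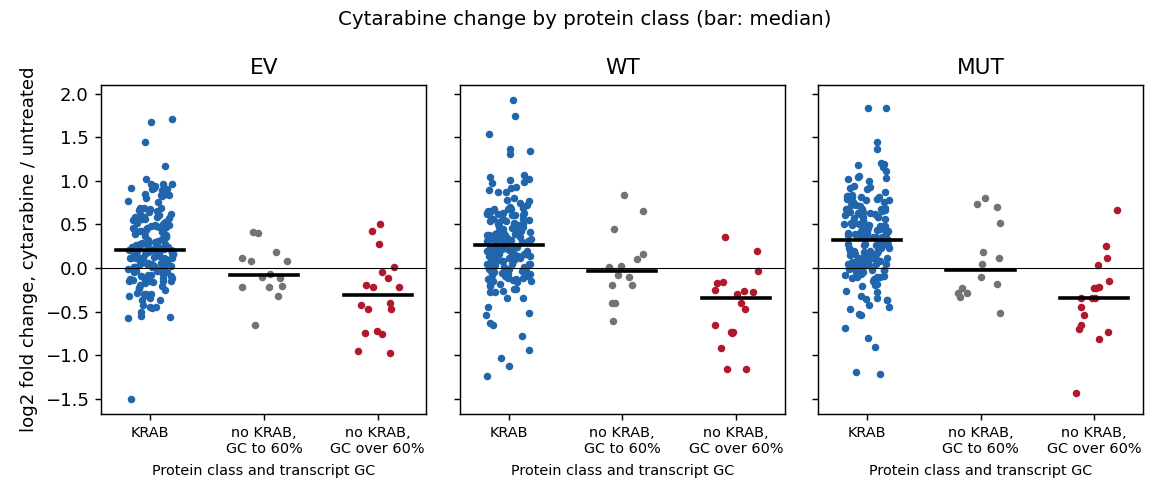
Log2 fold change under cytarabine (vertical axis) of each tested member by protein class and GC content of its transcript (horizontal axis), in EV, WT and MUT cells, with the median as a bar. The 182 members with a KRAB match have medians of 0.20, 0.26 and 0.32, and the 18 GC-rich members without one have medians of -0.31, -0.35 and -0.34.

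Other properties moved with the class. Transcripts of members with a match had a median GC content of 42.2% and those without had 62.1%, and the median count level was 5.95 against 13.0 CPM. Among members without a match, the 18 with a GC content above 60% gave 1 rise and 6 falls in EV, 0 and 9 in WT, and 0 and 7 in MUT cells. The other 14 gave 1 and 1, 2 and 2, and 4 and 3. All other tested genes with a GC content above 60% (2373) had medians of 0.20, 0.17 and 0.17, the opposite direction to the GC-rich members. Across the 214 members the mean change had a Pearson r of -0.35 with transcript GC and 0.18 with the number of fingers. Off chromosome 19, the 107 tested ZNF genes with a KRAB match gave 25 rises and 10 falls in EV, 26 and 14 in WT and 37 and 13 in MUT cells. Their rises (23.4%, 24.3% and 34.6%) were near the background of 26.1%, 26.3% and 30.4%. Their falls (9.35%, 13.1% and 12.1%) were below the background. The 133 without a match gave 29 and 42, 25 and 41, and 37 and 33 (21.8%, 18.8% and 27.8% higher, 31.6%, 30.8% and 24.8% lower). The part of GC content or count level in the difference between classes was not tested.

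Clusters differed in their counts of rises and falls. Over all tested genes 26.1% rose in EV, 26.3% in WT and 30.4% in MUT cells, and 22.9%, 22.7% and 25.9% fell. Among the other genes within the members' quartile range of counts, 39.2%, 38.3% and 43.6% rose and 10.7%, 12.3% and 15.3% fell. Cluster 3, of which 23 members were tested, gave 9 rises and 0 falls in EV, 10 and 0 in WT, and 8 and 1 in MUT cells (39.1%, 43.5% and 34.8% higher), with medians of 0.52, 0.50 and 0.51. The 6 other tested protein-coding genes within its bounds gave 1 rise and 2 falls, 0 and 2, and 1 and 2. Cluster 8 (36 tested) gave 14, 15 and 17 rises (38.9%, 41.7% and 47.2%) with 0, 2 and 2 falls. Cluster 7 (22 tested) gave 7, 8 and 11 rises (31.8% in EV and 36.4% in WT, and 11 of 22 in MUT cells) with 0, 1 and 2 falls. Cluster 9 (58 tested), which holds most of the GC-rich members without a KRAB match, gave 7 rises and 7 falls in EV, 12 and 10 in WT, and 9 and 9 in MUT cells, with rises (12.1%, 20.7% and 15.5%) below the share of all genes. Cluster 4 (19 tested) gave 2 rises and 1 fall in EV, 2 and 0 in WT, and 7 and 0 in MUT cells (10.5%, 10.5% and 36.8% higher). Its medians were closer, at 0.21, 0.23 and 0.28. Differences between clusters were not tested.

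Among members that rose in all lines, ZNF563, ZNF554, ZNF114, ZNF665 and ZNF441 had the largest mean changes, and all have a KRAB match. ZNF554 (chr19:2819874-2835774, cluster 1) held 1.93, 2.63 and 2.46 CPM in untreated and 7.87, 8.61 and 6.11 CPM in treated EV libraries. It held 2.4, 3.07 and 1.87 CPM in untreated and 6.12, 6.86 and 6.09 in treated WT libraries, and 2.41, 2.26 and 2.23 CPM against 9.18, 8.09 and 7.53 in MUT. Every treated library stood above every untreated one. The log2 fold change was 1.68 (SE 0.186, adjusted p = 4.9e-07) in EV, 1.37 (SE 0.183, adjusted p = 4.6e-06) in WT and 1.84 (SE 0.184, adjusted p = 8.8e-08) in MUT cells. ZNF563 rested on few counts, 4 to 16 in the untreated and 25 to 58 in the treated libraries, and had log2 fold changes of 1.71 in EV (SE 0.4), 1.93 in WT (SE 0.375) and 1.84 in MUT cells (SE 0.403). ZNF441 of cluster 3 lay between 2.23 and 4.5 CPM in the untreated libraries and between 4.88 and 8.98 CPM in the treated ones, with log2 fold changes of 1.02, 1.01 and 1.00. ZNF665 (cluster 8) had log2 fold changes of 0.92, 1.31 and 0.83. ZNF114 (chr19:48270102-48287609) stands outside the clusters and rose by 0.91 in EV, 1.75 in WT and 1.06 in MUT cells (log2). Its treated levels averaged 11.7, 8.4 and 9.47 CPM, and WT was below EV with treatment too (-0.48, adjusted p = 0.024).

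**Figure D3:**
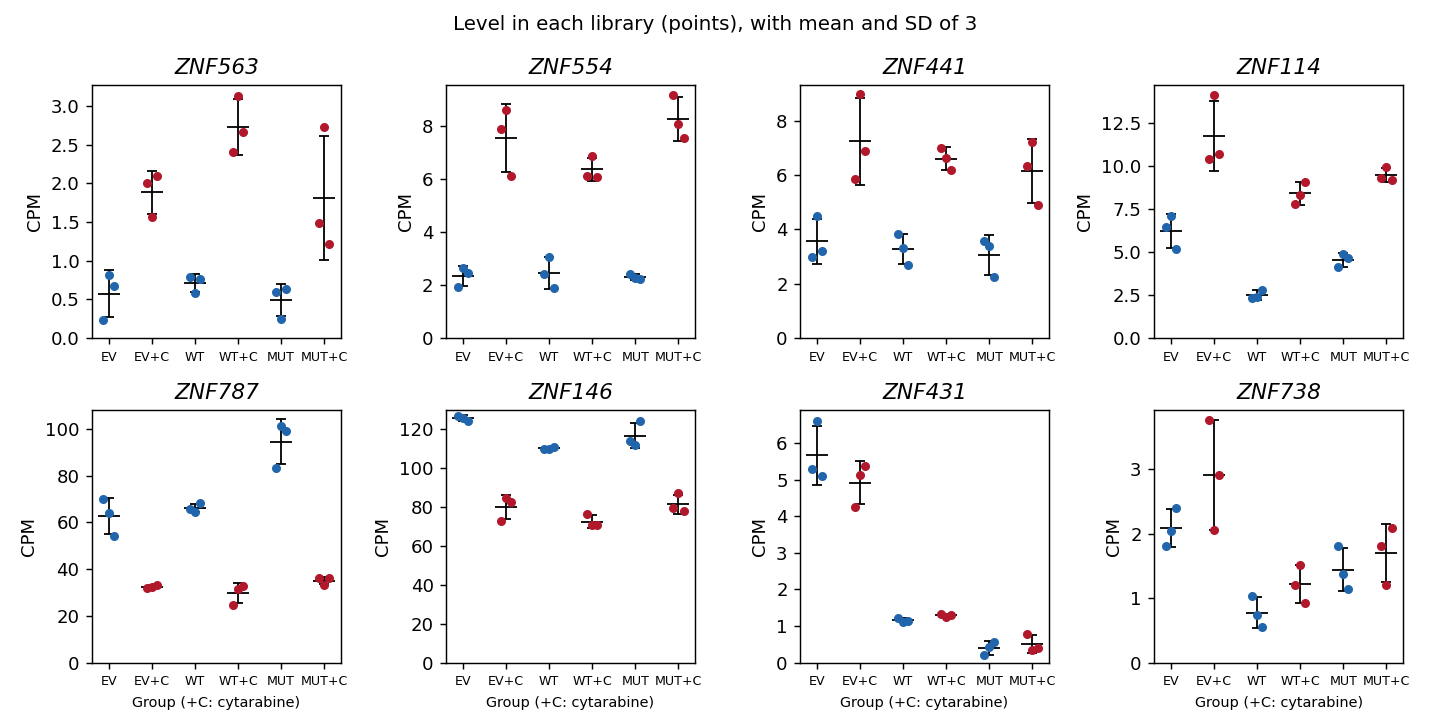
CPM (vertical axes, linear from 0) of 8 members in each of the 18 libraries by group (horizontal axes), with the mean and SD of 3 libraries; blue is untreated and red is cytarabine. ZNF563, ZNF554, ZNF441 and ZNF114 are higher and ZNF787 and ZNF146 lower in every treated library than in the untreated ones of the same line, and ZNF431 separates the lines in either treatment.

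Among the members called lower in all 3 lines, ZNF787, ZNF628, ZNF414, ZNF784 and ZNF574 had the largest mean falls, and these 5 lack a KRAB match and have GC contents above 60%. The others called lower in all 3 lines were ZNF146, also without a match, and ZNF749, ZNF587B and ZNF544, with a KRAB match. Their GC contents were 38.9%, 44.4%, 44.2% and 46.9%. Members that were not called in all lines include 4 with a KRAB match and a GC content of 33.2% to 45.9% whose mean log2 fold change was lower than that of ZNF784 or ZNF574. These were ZNF254 (-1.50, -1.03 and -0.69 in EV, WT and MUT cells, called in EV), ZNF285 (-0.31, -0.94 and -0.91, called in WT and MUT), ZNF333 (-0.46, -1.24 and -0.35, called in WT) and ZNF565 (-0.57, -0.63 and -0.80, called in MUT). ZNF787 (chr19:56087366-56121281, cluster 9) held 69.8, 63.8 and 54.3 CPM in untreated and 32.0, 32.4 and 33.1 in treated EV libraries. It held 65.7, 64.6 and 68.2 against 24.8, 31.5 and 32.8 CPM in WT, and 83.4, 101 and 99.2 against 36.0, 33.2 and 36.1 CPM in MUT libraries. Every treated library lay below every untreated one, and the fall was to a similar level in each line from a higher start in MUT cells. The log2 fold change was -0.95 (SE 0.102, adjusted p = 3.4e-07) in EV, -1.16 (SE 0.102, adjusted p = 2.7e-08) in WT and -1.43 (SE 0.1, adjusted p = 1e-09) in MUT cells. ZNF628, at the near end of the same cluster, had log2 fold changes of -0.76, -1.16 and -0.82, and ZNF784 had -0.47, -0.74 and -0.74. ZNF414 in cluster 2 had -0.72, -0.92 and -0.70, and ZNF574 on 19q had -0.75, -0.66 and -0.54. For ZNF574, 77.8% of libraries held a count that was not whole.

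Members with a described role did not move as 1 group. ZNF91 and ZNF93 silence SVA and L1 retrotransposons. ZNF91 rose in MUT cells by 0.56 on the log2 scale (SE 0.148, adjusted p = 0.00344), with values of 0.12 in EV and 0.23 in WT that did not pass. ZNF93, at 0.2 to 1.75 CPM in all libraries, rose by 1.37 (SE 0.411, adjusted p = 0.00798) in MUT cells, a call that was lost without untreated MUT replicate 1 (0.96, adjusted p = 0.0565). In EV cells ZNF93 missed the threshold (0.85, adjusted p = 0.0695) and passed it without treated EV replicate 1 (1.03, adjusted p = 0.0445), without untreated MUT replicate 1 (0.86, adjusted p = 0.0455) or without untreated MUT replicate 2 (0.85, adjusted p = 0.0496). ZNF274 brings SETDB1 to the 3′ ends of zinc finger genes. It rose by 0.38 in WT (adjusted p = 0.00138) and 0.28 in MUT cells (adjusted p = 0.00945) on the log2 scale, with 0.16 in EV (adjusted p = 0.152). Without untreated MUT replicate 3 the rise in MUT cells was 0.20 (adjusted p = 0.0667).

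ZNF331, an imprinted gene of cluster 8, rose by 0.57 in EV, 0.72 in WT and 0.92 in MUT cells (log2), from 9.68 to 17.4 CPM untreated to 19.4 to 31.7 CPM treated, without overlap. ZNF224, a repressor of the aldolase A gene, rose by 0.63 in WT and 0.64 in MUT cells and had 0.43 in EV, where it missed the threshold (adjusted p = 0.0702). Its counts were not whole in any library, and the EV value passed without untreated WT replicate 1 (adjusted p = 0.0479) or treated MUT replicate 1 (adjusted p = 0.0385), while the WT value did not pass without untreated WT replicate 3 (adjusted p = 0.0566). ZNF675, an inhibitor of TRAF6 signaling, rose by 0.54 in MUT cells (adjusted p = 0.00588). Its value of 0.41 in WT (adjusted p = 0.0447) did not pass under 13 of the other settings. Among these were the fits without untreated WT replicate 2 (0.30, adjusted p = 0.173) or 3, treated WT replicate 2 or 3, untreated EV replicate 2, treated EV replicate 3, or treated MUT replicate 2 or 3. ZNF146, which consists of little but zinc fingers, fell from 124 to 127 CPM untreated to 72.9 to 84.8 CPM treated in EV cells, and it passed the threshold in each line (log2 fold changes of -0.65, -0.61 and -0.52). Reads of ZNF146 were divided with other genes in every library. ZNF260, also made up mainly of fingers, rose in MUT cells (0.52, adjusted p = 1.6e-05) and had 0.08 in EV and 0.16 in WT, which did not pass. ZNF420, a KRAB protein described as a restrainer of p53, had -0.03, 0.05 and 0.08, ZNF85 had 0.38, 0.13 and 0.11, and none of these passed. ZNF382 was near 0 in all libraries and was not tested.

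In a chosen list of KRAB machinery and other chromatin genes, more genes fell than rose in each line. The list held 30 tested genes: TRIM28, TRIM24, SETDB1, ATF7IP, the HP1 genes CBX1, CBX3 and CBX5, the NuRD genes CHD3, CHD4, HDAC1, HDAC2, RBBP4, RBBP7, MTA1 and MTA2, the HUSH genes FAM208A, MPHOSPH8 and PPHLN1, and MORC2, MORC3, SMARCAD1, SUV39H1, EHMT1, EHMT2, ATRX, DAXX, SENP7, DNMT1, MBD1 and UHRF1. Of these, 16 fell and 1 rose in EV cells (53.3% lower, against 22.9% of all tested genes). In WT cells 13 fell and 0 rose (43.3% lower, against 22.7%), and in MUT cells 14 fell and 4 rose (46.7% lower, against 25.9%). Most of the listed genes stood above the median level of all tested genes, 16.1 CPM, and no share of genes at like counts was taken. TRIM28, the corepressor that KRAB domains bind, averaged 376 ± 4.03 CPM without and 231 ± 12.5 CPM with cytarabine in EV cells, 419 ± 8.55 and 254 ± 9.16 in WT, and 550 ± 41.7 and 292 ± 6.91 in MUT cells (SD, n = 3). Its log2 fold changes were -0.71 (SE 0.0632, adjusted p = 3.4e-08), -0.72 (SE 0.0631, adjusted p = 2.5e-08) and -0.91 (SE 0.0631, adjusted p = 8.8e-10). SUV39H1, a histone H3 lysine 9 methyltransferase, had -0.74, -0.79 and -0.76, and CHD4, the NuRD remodeller, had -0.63, -0.68 and -0.68, all past the threshold. SETDB1 fell in EV (-0.44) and WT (-0.52) and had -0.23 in MUT cells (adjusted p = 0.0633). The HP1 genes CBX1 and CBX3 fell in each line, and CBX5 had 0.07, 0.10 and 0.21, none of which passed. SENP7, a SUMO protease, rose in EV (0.62) and MUT cells (0.82), with 0.36 in WT (adjusted p = 0.0572).

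A smaller share of members than of all tested genes was called between the untreated lines. Between MUT and EV cells 4 members were higher and 14 lower, together 18 of 214 (background 19.9% of all tested genes; 9.88% higher and 10.0% lower). Between WT and EV cells 2 were higher and 7 lower (background 11.7%; 4.3% and 7.36%), and between MUT and WT cells 5 were higher and 9 lower (background 21.2%; 11.7% and 9.54%). The first and second of these comparisons share the EV libraries, and each line enters 2 of the 3. The other 2983 genes within the members' quartile range of counts gave 171 higher and 341 lower between MUT and EV cells, also more lower than higher. The member medians were -0.01, -0.05 and 0.00 on the log2 scale. Other protein-coding genes of chromosome 19 gave 245 higher and 32 lower of 860 between MUT and EV cells, with a median of 0.18, and those on 19p had 0.23 where members on 19p had -0.07. ZNF genes off chromosome 19 gave 7 higher and 32 lower of 242 between MUT and EV cells, with a median of -0.11. They gave 11 and 14 between WT and EV cells, and 7 and 37 between MUT and WT cells. More lower than higher calls were thus not particular to the members. With DESeq2's size factors the members split 6 higher and 10 lower for MUT against EV, and 10 higher and 8 lower for MUT against WT. In the second of these the balance of directions therefore flips. With only the groups compared in the fit, 3 members were called in MUT relative to EV, 18 in WT relative to EV and 3 in MUT relative to WT. Untreated MUT replicates differed more from each other than those of untreated EV or WT. Their chi-square per degree of freedom between library pairs was 23.3 to 51.5. It was 2.5 to 3.73 in EV and 2.86 to 2.98 in WT cells. The median coefficient of variation of members was 15.1% in MUT, 10.4% in EV and 9.59% in WT. The main fit pooled all 18 libraries. How far this spread affects SEs and p-values that use untreated MUT libraries was not tested.

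**Figure D4:**
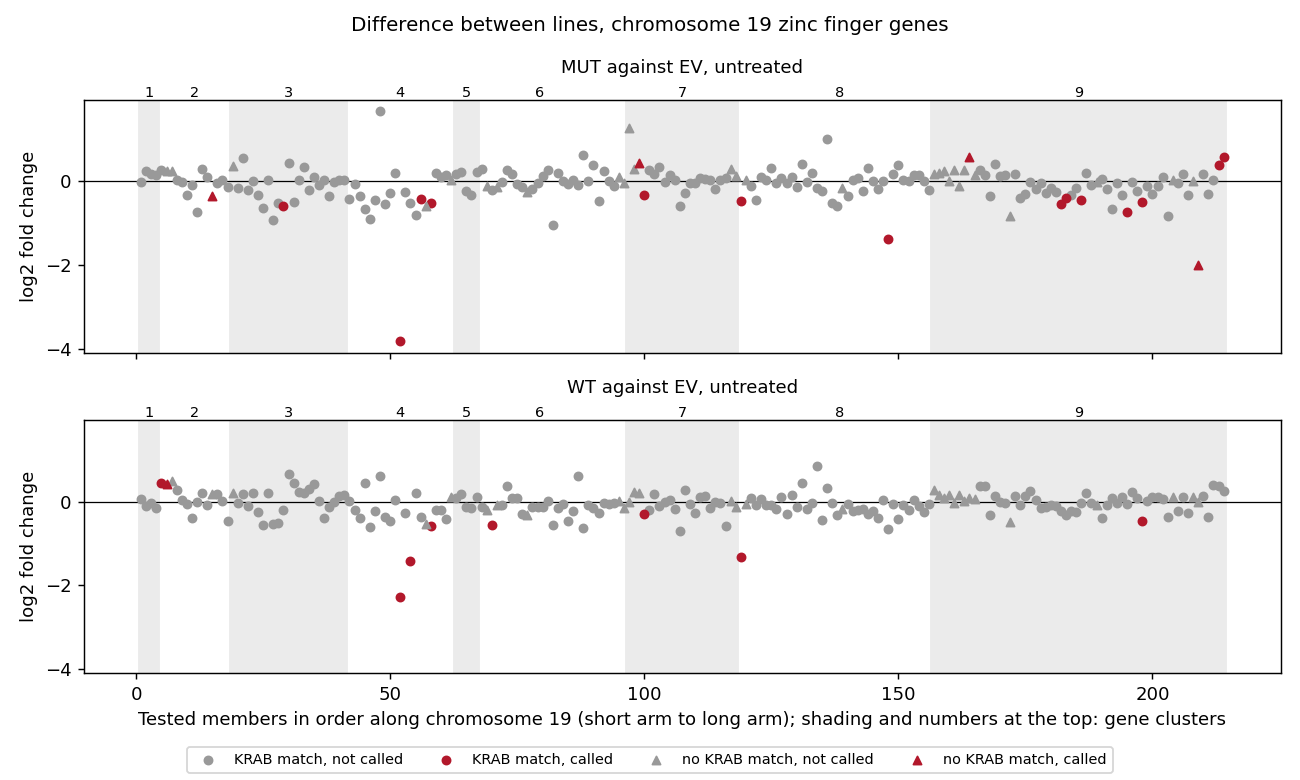
Log2 fold change between untreated lines (vertical axis) of the 214 tested members in order along chromosome 19 (horizontal axis), for MUT against EV and WT against EV, which share the EV libraries; circles have a KRAB match, triangles have none, and red marks an adjusted p under 0.05. ZNF431 in cluster 4 is the lowest point in each panel, at -3.82 and -2.28.

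ZNF431 (chr19:21142024-21196054, plus strand, cluster 4) had the largest difference of any member between the lines. It held 5.3, 6.6 and 5.11 CPM in untreated EV libraries, 1.23, 1.11 and 1.15 in WT, and 0.2, 0.44 and 0.571 in MUT. With cytarabine it held 4.25, 5.12 and 5.38 CPM in EV, 1.34, 1.24 and 1.3 in WT, and 0.79, 0.335 and 0.392 in MUT. The 3 lines did not overlap in either treatment, with EV highest and MUT lowest. Among untreated cells the log2 difference was -3.82 in MUT relative to EV (SE 0.311, adjusted p = 1.5e-07), -2.28 in WT relative to EV (SE 0.266, adjusted p = 8.4e-06) and -1.54 in MUT relative to WT (SE 0.346, adjusted p = 0.00351). Under cytarabine it was -3.26 (SE 0.29) for MUT against EV and -1.92 (SE 0.261) for WT against EV. Counts in untreated MUT libraries were 4, 7 and 10, and with only the groups compared in the fit the MUT against WT difference did not pass (adjusted p = 0.0732). DNMT3A ran in the opposite order over the lines, at 26.8, 133 and 456 CPM untreated, and its part in the difference was not tested. Cytarabine changes of ZNF431 within a line were -0.21, 0.16 and 0.35, and none passed.

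Most of the 18 other tested members of cluster 4 had values below 0 against EV, but few were called. Between MUT and EV cells 5 of the 18 lay above 0, the median was -0.39 and 2 were called lower (ZNF91 and ZNF100). Between WT and EV cells 4 lay above 0, the median was -0.32 and 2 were called lower (ZNF91 and ZNF738). Of all tested genes, 10.0% and 7.36% were called lower in these comparisons, and 9.88% and 4.3% higher. None of the 18 was called higher in either comparison, and the comparisons share the EV libraries. ZNF91 had -0.53 (SE 0.15, adjusted p = 0.0172) in MUT and -0.58 (SE 0.15, adjusted p = 0.0145) in WT cells against the same EV libraries. It held 7.12 to 8.76 CPM in EV, 4.81 to 5.64 in WT and 4.65 to 5.71 in MUT libraries, so that both DNMT3A lines lay below EV and overlapped each other. ZNF738 was lower in WT cells (-1.41, SE 0.327, adjusted p = 0.0069), at 1.03, 0.74 and 0.55 CPM against 1.81, 2.04 and 2.4 in EV, and had -0.52 in MUT (adjusted p = 0.255). Between MUT and WT cells the median of the 18 was 0.04. Under cytarabine their medians against EV were -0.11 in MUT and -0.20 in WT cells.

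ZNF114 followed another order, with 6.42, 7.06 and 5.16 CPM in untreated EV, 2.3, 2.38 and 2.8 in WT and 4.11, 4.9 and 4.62 in MUT libraries. WT was lowest, MUT lay between, and no groups overlapped. The log2 difference was -1.32 in WT relative to EV (SE 0.163, adjusted p = 1.6e-05), -0.46 in MUT relative to EV (SE 0.154, adjusted p = 0.0432) and 0.86 in MUT relative to WT (SE 0.166, adjusted p = 0.00109). ZNF787 was higher in MUT cells, by 0.59 against EV (SE 0.0982, adjusted p = 3.6e-04) and 0.51 against WT (SE 0.0977, adjusted p = 9.6e-04), and had 0.08 between WT and EV. ZNF665 was higher in MUT than in WT cells (0.81, adjusted p = 0.0147). ZNF586 was lower in MUT cells, with -0.73 against EV and -0.67 against WT, at 3.21 to 4.81 CPM against 6.45 to 7.88 and 6.34 to 7.14. ZNF415, at 0.377 to 0.685 CPM in MUT and 1.17 to 1.69 in EV libraries, had -1.39 (adjusted p = 0.0116), which did not pass without untreated EV replicate 1 (-1.22, adjusted p = 0.0537). With only the groups compared in the fit, ZNF665 (adjusted p = 0.0827) and ZNF415 (0.0732) did not pass. Nor did ZNF586 there, against EV (adjusted p = 0.0735) or against WT (0.0789).

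Several smaller differences lost their call without single libraries. ZNF557 (0.45, adjusted p = 0.0279) and ZNF358 (0.43, adjusted p = 0.0204) were higher in WT than in EV cells. ZNF557 lost the call without any 1 of untreated EV replicates 1 (0.39), 2 (0.48) and 3 (0.48) or untreated WT replicates 1 (0.44) and 2 (0.42). ZNF358 lost it without any 1 of the untreated EV replicates (0.42, 0.44 and 0.42) or without untreated WT replicate 2 (0.42) or 3 (0.40). ZNF446 (0.57, adjusted p = 0.0189) and its neighbour ZNF324 (0.38, adjusted p = 0.0455) were higher in MUT than in EV cells. The genes overlap on the same strand and had counts that were not whole in every library, so their reads are not fully separate. ZNF446 did not pass without untreated EV replicate 1 (0.49) or 3 (0.56), and ZNF324 did not pass in 9 of the 18 fits that leave out 1 library, namely without untreated EV replicate 1 (0.29) or 3, treated EV replicate 3, any 1 treated WT replicate, untreated MUT replicate 2, or treated MUT replicate 1 or 2. ZNF284 was lower in MUT than in WT cells (-0.58, adjusted p = 0.0308) and lost the call without untreated WT replicate 2 (-0.47) or 3 (-0.59) or untreated MUT replicate 1 (-0.44) or 2 (-0.51). Its reads too were divided in every library. ZNF446, ZNF324 and ZNF284 also did not pass with only the groups compared in the fit (adjusted p = 0.0797, 0.177 and 0.0791).

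Under cytarabine 7 members were higher and 3 lower in MUT than in EV cells (background 14.0% of all tested genes called, 6.85% higher and 7.13% lower), 7 higher and 9 lower in WT than in EV (background 16.5%; 7.41% and 9.12%), and 10 higher and 4 lower in MUT than in WT (background 19.8%; 10.4% and 9.48%). In MUT against EV, ZNF675 was higher by 0.74 (SE 0.156, adjusted p = 0.00367), at 6.06, 6.75 and 7.14 CPM against 4.1, 3.68 and 4.14, without overlap. ZNF260 was higher by 0.31 (SE 0.0783, adjusted p = 0.013) in the same comparison. ZNF738 was lower in WT than in EV cells (-1.27, adjusted p = 0.00661), as it was untreated.

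No member's cytarabine change differed between lines past the threshold in edgeR's quasi-likelihood test. The background of such calls was 0.214% of all tested genes for MUT and EV, 1.0% for MUT and WT, and 0.285% for WT and EV. At an unadjusted p under 0.05 there were 19 members (8.88%, against 15.8% of all tested genes) in the test of MUT and EV changes, 14 (6.54%, against 15.4%) for MUT and WT, and 9 (4.21%, against 9.96%) for WT and EV. DESeq2 called 3, 1 and 0 members. The median difference between changes was 0.08, 0.03 and 0.05 on the log2 scale.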

How the data were processed

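RNA-seq libraries of 18 U2OS cultures were analysed from the deposited table of estimated counts per gene. Per the submitters' processing notes, CASAVA, STAR 2.6.1d and hg38 were used; the counting tool and its handling of strand and of reads with several matches are not given in the sources used here. The deposited estimated counts were not normalized, and 70.4% were whole. A second deposited table holds the authors' normalized signal, which equals 1 plus a library factor times the estimated count (largest relative deviation 8.14e-06); its factors served as an alternative scaling.

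Estimated counts were rounded and fitted with edgeR 4.0.16 (limma 3.58.1, R 4.3.3): filterByExpr on the groups, TMM, 1 quasi-likelihood fit of all 18 libraries with a coefficient per group, and Benjamini-Hochberg adjustment over all 18226 tested genes, called at an adjusted p under 0.05. Adjusted p-values in the text are from this fit unless DESeq2 1.42.0 is named. The script was tested on simulated data. CPM uses TMM-scaled totals; intervals of precision come from 3 libraries a group and totals of 15.4 to 21.9 M (1000000) counts.

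Exonic length, overlaps and transcript GC came from GENCODE v44. All 230 members overlapped their position there. The KRAB class came from a pattern search in the translated canonical coding sequence of GENCODE v44, since no RefSeq protein table was used here. Named members were the 5 largest mean rises and falls under cytarabine among those called in all 3 lines, up to 3 rises and 3 falls of each untreated line comparison and each difference between cytarabine changes (mean CPM of at least 1, no overlap of replicates), and members with a described role; other names were chosen after their values were seen. The members, the lists and the tests were chosen with earlier results of these data known. Alternatives were the authors' factors, DESeq2 and its size factors, other filters, only the groups compared, a replicate block and leaving out each library. In the list of KRAB machinery, 1 planned gene is not reported here.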

Additional observations from a re-analysis of the deposited data

How the results depend on the processing

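Depth limits the members: many rest on few counts, which limits the differences that can be detected. No pairing of libraries by replicate number was seen (same-numbered correlations of -0.176 to 0.352, others of -0.368 to 0.297, own number best in 33.3%). Such correlations cannot show that there was none. With a replicate block, 59, 76 and 84 members were called for cytarabine in EV, WT and MUT cells, 18, 8 and 15 for untreated MUT against EV, WT against EV and MUT against WT, 8, 16 and 15 for the same pairs treated, and 0 for each difference between changes. With only the groups compared, untreated calls were 3 (MUT against EV), 18 (WT against EV) and 3 (MUT against WT), and treated MUT against WT gave 31 in place of 14; the cause was not tested. For MUT minus EV changes, DESeq2 called 3 members and a filter at a mean of 50 counts called 1; for MUT minus WT changes DESeq2 called 1. Leaving out 1 library gave 45 to 71, 57 to 82 and 76 to 88 calls for cytarabine in EV, WT and MUT. Untreated it gave 11 to 24 (MUT against EV, 11 without EV replicate 1 or 3), 4 to 12 (WT against EV, 4 without WT replicate 2 and 5 without WT replicate 3 or any 1 EV replicate) and 9 to 19 (MUT against WT, 9 without WT replicate 3). Treated it gave 5 to 13 (MUT against EV, 5 without EV replicate 1), 6 to 19 (WT against EV, 6 without WT replicate 2, 8 without WT replicate 1 or EV replicate 3) and 8 to 19 (MUT against WT, 8 without MUT replicate 3 and 9 without MUT replicate 2). Differences between changes gave 0 to 3 for MUT minus EV (3 without untreated MUT replicate 1, 1 without untreated MUT replicate 2 or 3 or treated EV replicate 2), 0 to 2 for MUT minus WT (2 without untreated MUT replicate 1) and 0 to 1 for WT minus EV (1 without treated EV replicate 2). With the authors' factors, untreated MUT against WT gave 9 higher and 8 lower. Of 1911 alternative values of named members, 1850 kept direction and side of the threshold, 52 lost the call, 9 gained it and 0 reversed. Most of these settings leave out 1 library, often from a group outside the comparison, where the value can hardly move. With only the groups compared, 10 of 77 named values lost the call and 1 gained it.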
